A study of Mus musculus with 12 samples.

Results

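The 35 genes described here are interferon-stimulated genes outside the IFIT, OAS, IRG, GBP and antigen presentation families. They were chosen by symbol, and all 35 were found among the 55421 Ensembl genes of the deposited count table. The RNA was taken from MOC2, a cell line of a squamous carcinoma of the mouse mouth, in 2 derivatives, MOC2-25, labelled EV-proficient, and MOC2-27, labelled EV-deficient. EV stands for extracellular vesicle, a membrane-bound particle shed by cells. The study asked how vesicles from senescent cells shape the signals those cells send, and vesicle release was blocked genetically in the EV-deficient derivative by a change that the labels do not specify. Each derivative was sampled with DMSO and after 48 h in 600 nM paclitaxel, which stabilises microtubules and can drive cells into senescence, with 3 libraries in each of the 4 groups. All 12 libraries came from 1 cell line grown in the same medium, and each EV label stands for 1 derivative line. The labels do not say whether the libraries of a group came from separate cultures, so the p-values measure only the spread between these libraries, which may be technical.

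Interferons bind receptors that signal through JAK kinases to STAT proteins. STAT2 and IRF9 are parts of the factor ISGF3, which binds the interferon-stimulated response element (ISRE) in front of many genes, and another site in such genes is the gamma-activated site (GAS). One of the strongest targets is Isg15, which encodes a ubiquitin-like protein. ISG15 is attached to other proteins by an enzyme chain parallel to that of ubiquitin, through the activating enzyme UBA7, the conjugating enzyme UBE2L6 and, in the mouse, the ligase HERC6, and USP18 removes it. Other members encode proteins that bind viral RNA, deplete or alter nucleotides, trap virions, transfer ADP-ribose, or act as ubiquitin ligases of the TRIM family.

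Library totals ran from 23263472 to 62955757 counts, and levels are given as CPM, the usual depth-normalised count unit, on scaled library sizes. All 35 genes passed the filter on low counts among the 18108 genes tested, but Mx1, Mx2, Trim30a and Ifi44 would not have passed on the 6 DMSO libraries alone, so these 4 had to be higher with the drug to be tested. In the main fit, counts of calls over the other 31 are given beside those over all 35. Medians, counts of separate ranges, group orders and alternative fits cover all 35, these 4 included. The dngfr row, 1 of 2 rows in the table that are not Ensembl genes, did not follow the EV labels across treatments. Its mean was 8.99 ± 3.23 CPM in EV-proficient DMSO libraries and 2.15 ± 0.35 CPM in EV-deficient DMSO libraries, but 3.24 ± 0.68 and 10.92 ± 1.42 CPM under paclitaxel (SD, n = 3 each). The second principal component (16.4% of the variance) likewise placed EV-proficient DMSO with EV-deficient paclitaxel libraries. Of the 2834 genes that differed between the EV labels at both treatments, 2722 differed in opposite directions and 112 in the same one. Were the labels exchanged in 1 treatment, each label's drug effect would compare different lines. The interaction would then be the sum of the 2 label differences in place of their difference. That sum holds for an exchange with DMSO and takes the opposite sign for an exchange with paclitaxel. Interactions are therefore also given for an exchange with DMSO, chosen after seeing the data, and whether the labels were exchanged was not tested. The EV names below are therefore those of the libraries as labelled, and the average of both paclitaxel effects is the comparison that does not depend on which line is which. EV-deficient paclitaxel replicate 3 also stood apart. It was the lowest library of its group for 34 of the 35 genes. Their summed level was 1345 CPM there against 1905 and 1993 CPM in replicates 1 and 2. EV-proficient paclitaxel replicate 3 was the lowest of its group for 23 of the 35. The share of all genes lowest in either library was not counted.

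The sequences just before the start of 6 members are shown because they hold an ISRE or GAS core and cover genes with large increases under paclitaxel (Isg15, Rsad2, Trim30a), with smaller ones (Bst2, Irf1) and with a decrease (Isg20). RefSeq promoter windows of 300 bases (250 before to 50 after the start, GRCm38.p6) were available for 27 of the 35 genes. The ISRE core was searched as GAAA, any 2 bases and GAAA again, and the GAS core as TTCNNNGAA, on either strand. The stretches run 140 bases up to the base before the start, 5′ to 3′ along the gene's strand. Isg15 lies at chr4:156200819-156200958 on the minus strand, Rsad2 at chr12:26456453-26456592 on the minus strand, Bst2 at chr8:71537473-71537612 on the minus strand and Trim30a at chr7:104465194-104465333 on the minus strand. Capitals mark the ISRE core in these 4 genes.
Isg15: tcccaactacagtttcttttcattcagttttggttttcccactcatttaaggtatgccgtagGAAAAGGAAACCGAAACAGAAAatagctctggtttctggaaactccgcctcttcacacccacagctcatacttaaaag
Rsad2: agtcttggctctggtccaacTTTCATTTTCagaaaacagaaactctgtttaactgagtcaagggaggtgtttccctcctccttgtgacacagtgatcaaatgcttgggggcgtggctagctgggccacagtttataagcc
Bst2: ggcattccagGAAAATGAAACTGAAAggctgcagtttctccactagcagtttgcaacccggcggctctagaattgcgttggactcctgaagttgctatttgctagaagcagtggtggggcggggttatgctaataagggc
Trim30a: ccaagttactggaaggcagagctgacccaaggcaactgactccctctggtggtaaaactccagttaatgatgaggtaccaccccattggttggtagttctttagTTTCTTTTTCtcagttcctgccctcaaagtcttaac
In Irf1 (chr11:53769874-53770013 on the plus strand) and Isg20 (chr7:78913284-78913423 on the plus strand) capitals mark the GAS core.
Irf1: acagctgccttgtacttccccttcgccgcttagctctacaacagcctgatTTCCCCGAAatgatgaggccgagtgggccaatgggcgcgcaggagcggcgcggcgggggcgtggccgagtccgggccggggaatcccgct
Isg20: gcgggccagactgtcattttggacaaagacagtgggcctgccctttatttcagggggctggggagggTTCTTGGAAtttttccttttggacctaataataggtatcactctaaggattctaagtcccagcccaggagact
Isg15 held 3 overlapping ISRE cores, at -78, -72 and -66 from the start, and Bst2 held 2, at -130 and -124. In Rsad2 and Trim30a the core was read on the opposite strand, so it appears as its reverse complement.

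The ISRE core was present in 8 of the 27 genes with a window (29.6%, 95% Wilson interval 15.9 to 48.5), and in 3.99% of the 27025 genes of the RefSeq table. Besides the 4 shown, these were Stat2, with the core at -222, and Ifitm3, Eif2ak2 and Trim21, whose cores lay after the start; the first of these is GAAAAGGAAA in Ifitm3, GAAAACGAAA in Eif2ak2 and GAAACTGAAA in Trim21. Restricted to the bases before the start, the core was in 5 of the 27 genes (18.5%) and in 3.46% of all genes. The GAS core was in 8 of the 27 (29.6%), against 9.55% of all genes: Irf1, Isg20, Bst2, Ifitm3, Samhd1, Eif2ak2, Adar and Ifi35. In Ifi35 and Adar this core lay after the start, as it did in Ifitm3. A match describes these letters in these windows and says nothing of binding, and genes without one may carry other forms or sites elsewhere.

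**Figure D1:**
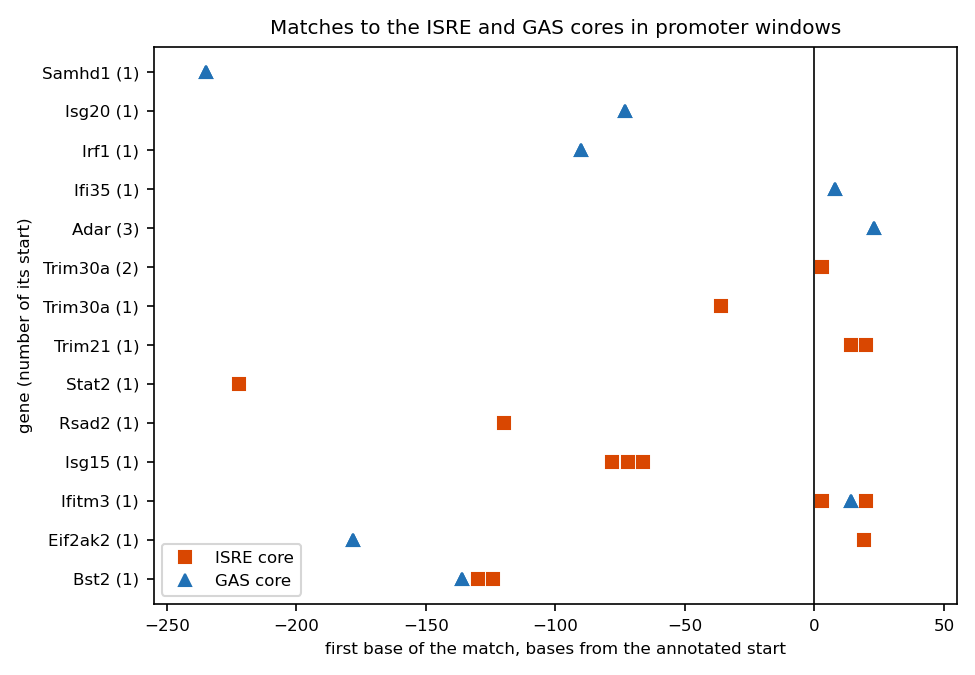
Position of each ISRE core (squares) and GAS core (triangles) in the members' RefSeq promoter windows, in bases from the annotated start (x axis), for each gene and numbered start (y axis) with a match. Isg15 has 3 ISRE cores between -78 and -66, while those of Ifitm3, Eif2ak2 and Trim21 lie after the start.

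The effect of the drug was taken separately in each EV label. Among EV-proficient cells 32 of the 35 genes rose and 2 fell, Isg20 and Samhd1. Those labelled EV-deficient had 33 that rose and 1 that fell, Isg20. Of the 31 genes that passed the filter on DMSO libraries, 28 rose and 2 fell in EV-proficient cells, and 29 rose and 1 fell in EV-deficient cells. Across all genes tested, 58.2% were called in the former (31.1% higher, 27.1% lower) and 62.9% in the latter (32.4% higher, 30.5% lower). These shares are also the background for the drug-effect counts of each gene list below. The median log2 fold change of the 35 genes was 1.38 in EV-proficient and 2.64 in EV-deficient cells, against 0.05 and 0.07 over all genes. Averaged over both EV labels, 32 rose and 2 fell, Isg20 and Samhd1, with a median of 2.13. Over the 31 genes that passed the filter on DMSO libraries, 28 rose and 2 fell. Of all genes tested, 68.4% were called on this average, 37.1% higher and 31.3% lower. All these calls are from edgeR's quasi-likelihood test at an adjusted p under 0.05 over all genes.

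The CPM ranges of the drug and DMSO libraries were separate and higher under drug for 31 genes in EV-proficient cells (33.1% of all genes) and for 34 in EV-deficient cells (35.2%). Both counts include Mx1, Mx2, Trim30a and Ifi44, which had to be higher with the drug to be tested. The ranges of Adar and Ifi35 overlapped in EV-proficient cells, and no gene's did in EV-deficient cells. In fits with 1 library left out, between 32 and 34 genes were called in EV-proficient cells and between 33 and 34 in EV-deficient cells.

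**Figure D2:**
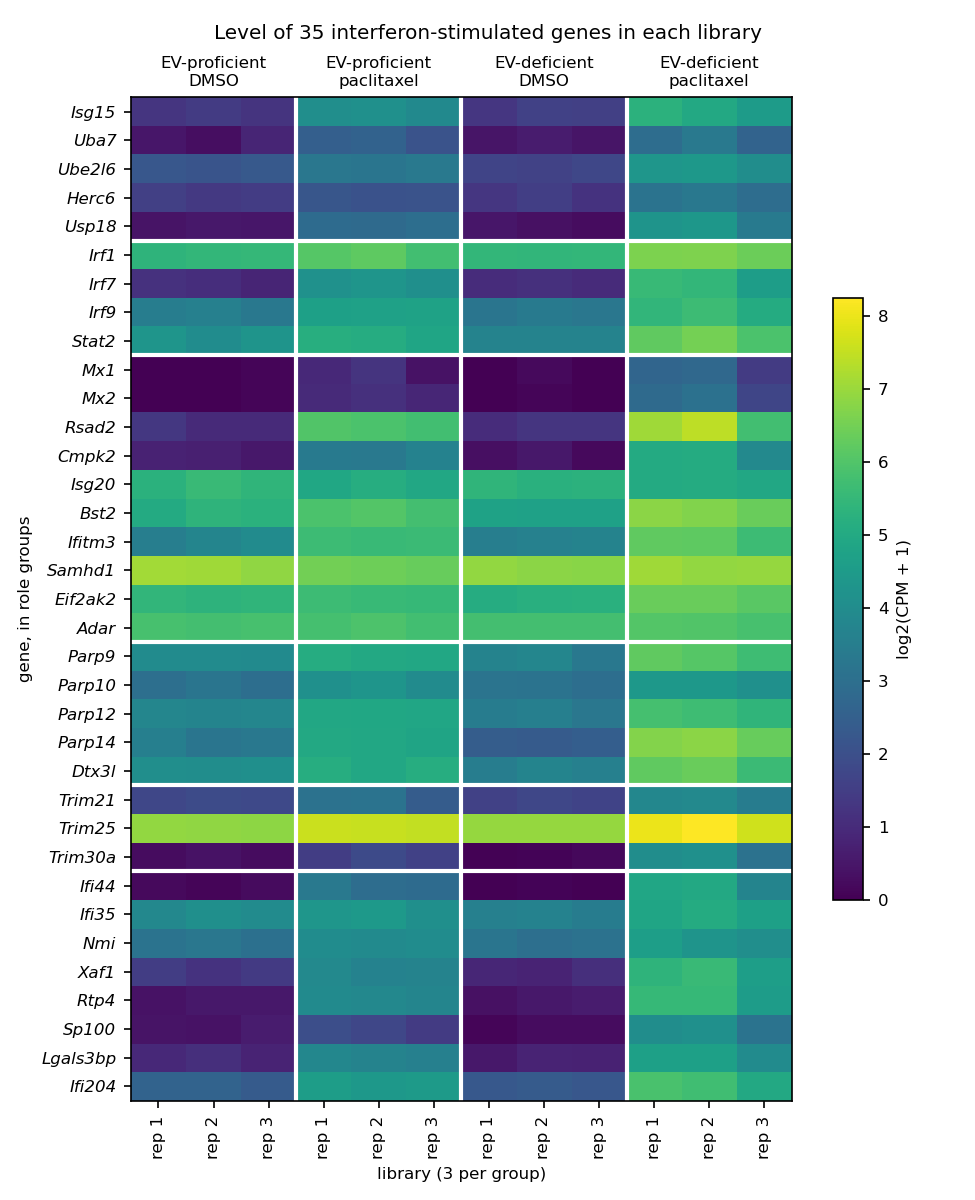
Level of the 35 genes (rows, in role groups divided by white lines) in each of the 12 libraries (columns), as log2(CPM + 1) in colour. Paclitaxel libraries are brighter than DMSO libraries in most rows, EV-deficient paclitaxel replicate 3 is darker than its 2 replicates, and Isg20, Samhd1 and Adar show little contrast.

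The 5 genes of ISG15 and its conjugation cycle all rose in both EV labels. On GRCm38 (GENCODE M21) they lie at chr4:156199424-156200818 (Isg15, ENSMUSG00000035692, minus strand), chr9:107975505-107984060 (Uba7, ENSMUSG00000032596, plus strand), chr2:84798828-84810335 (Ube2l6, ENSMUSG00000027078, plus strand), chr6:57581000-57664632 (Herc6, ENSMUSG00000029798, plus strand) and chr6:121245906-121270917 (Usp18, ENSMUSG00000030107, plus strand). Isg15, the modifier itself, stood at 1.41, 1.68 and 1.35 CPM in EV-proficient DMSO libraries and at 15.9, 16.5 and 14.0 CPM with paclitaxel. In the EV-deficient libraries it stood at 1.48, 2.0 and 1.95 CPM with DMSO and 38.1, 30.4 and 22.2 CPM with paclitaxel. The drug and DMSO libraries did not overlap in either label, and every EV-deficient paclitaxel library exceeded every EV-proficient one. The increase was 10.4-fold (log2 fold change 3.38 ± 0.19 SE, adjusted p = 3.3e-12) in EV-proficient and 16.8-fold (4.07 ± 0.18 SE, adjusted p = 5.6e-14) in EV-deficient cells.

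Uba7, which activates ISG15, was at 0.414, 0.239 and 0.82 CPM in EV-proficient DMSO, 4.62, 4.99 and 3.32 CPM in EV-proficient paclitaxel, 0.393, 0.542 and 0.373 CPM in EV-deficient DMSO and 6.69, 9.17 and 5.12 CPM in EV-deficient paclitaxel libraries. It rose 9.08-fold (3.18 ± 0.32 SE) and 15.9-fold (4.0 ± 0.31 SE) in the respective labels. Ube2l6, which carries ISG15 to the ligase, was measured at 3.68, 3.45 and 3.98 CPM in EV-proficient DMSO and 8.62, 8.33 and 9.06 CPM in EV-proficient paclitaxel libraries. The EV-deficient values were 2.25, 2.06 and 2.35 CPM with DMSO and 19.2, 20 and 15.4 CPM with paclitaxel. Ube2l6 thus started lower and ended higher in the libraries labelled EV-deficient, with no overlap at either treatment, and rose 2.34-fold (1.23 ± 0.13 SE) in EV-proficient and 8.18-fold (3.03 ± 0.14 SE) in EV-deficient cells.

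Herc6, the ligase, was read at 1.97, 1.58 and 1.76 CPM in EV-proficient DMSO, 3.58, 3.20 and 3.28 CPM in EV-proficient paclitaxel, 1.45, 1.86 and 1.29 CPM in EV-deficient DMSO and 7.88, 8.93 and 6.69 CPM in EV-deficient paclitaxel libraries. The 2 DMSO groups overlapped, the 2 paclitaxel groups did not, and the increases were 1.89-fold (0.92 ± 0.19 SE) and 5.10-fold (2.35 ± 0.19 SE). In the annotation, 13.7% of its exon bases are shared with a same-strand transcript (Gm45193), to which reads could also be assigned. Usp18, the ISG15 protease that also restrains the type I interferon receptor, was at 0.341, 0.431 and 0.41 CPM in EV-proficient DMSO and 6.38, 6.28 and 6.84 CPM in EV-proficient paclitaxel libraries. In EV-deficient libraries Usp18 was at 0.41, 0.292 and 0.219 CPM with DMSO and 18.5, 19.7 and 9.32 CPM with paclitaxel. Its increases of 16.4-fold (4.03 ± 0.29 SE) and 50.2-fold (5.65 ± 0.28 SE) were the highest of the 5 genes in the respective labels.

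Genes for the corresponding ubiquitin machinery did not share this direction. Of 19 related genes (other modifiers, activating and conjugating enzymes, HERC ligases and proteases), 3 rose and 11 fell in EV-proficient cells and 2 rose and 11 fell in EV-deficient cells. Uba1, the ubiquitin activating enzyme, had log2 fold changes of -0.29 ± 0.05 and -0.55 ± 0.05 (SE) in EV-proficient and EV-deficient cells. Ube2l3, the closest relative of Ube2l6 in the list, had -0.25 ± 0.08 and -0.47 ± 0.08. Uba6 fell in EV-proficient (-0.54 ± 0.09) and rose in EV-deficient cells (0.30 ± 0.09). Herc3 rose in both (0.55 ± 0.07 and 0.67 ± 0.07), and Herc4 fell in EV-proficient cells (-0.30 ± 0.08), its value of 0.16 ± 0.08 in EV-deficient cells missing the threshold (adjusted p = 0.073). The 3 with the largest average paclitaxel effect among those called were the protease Usp5 (-0.74), the modifier Nedd8 (-0.71) and Herc3 (0.61).

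**Figure D3:**
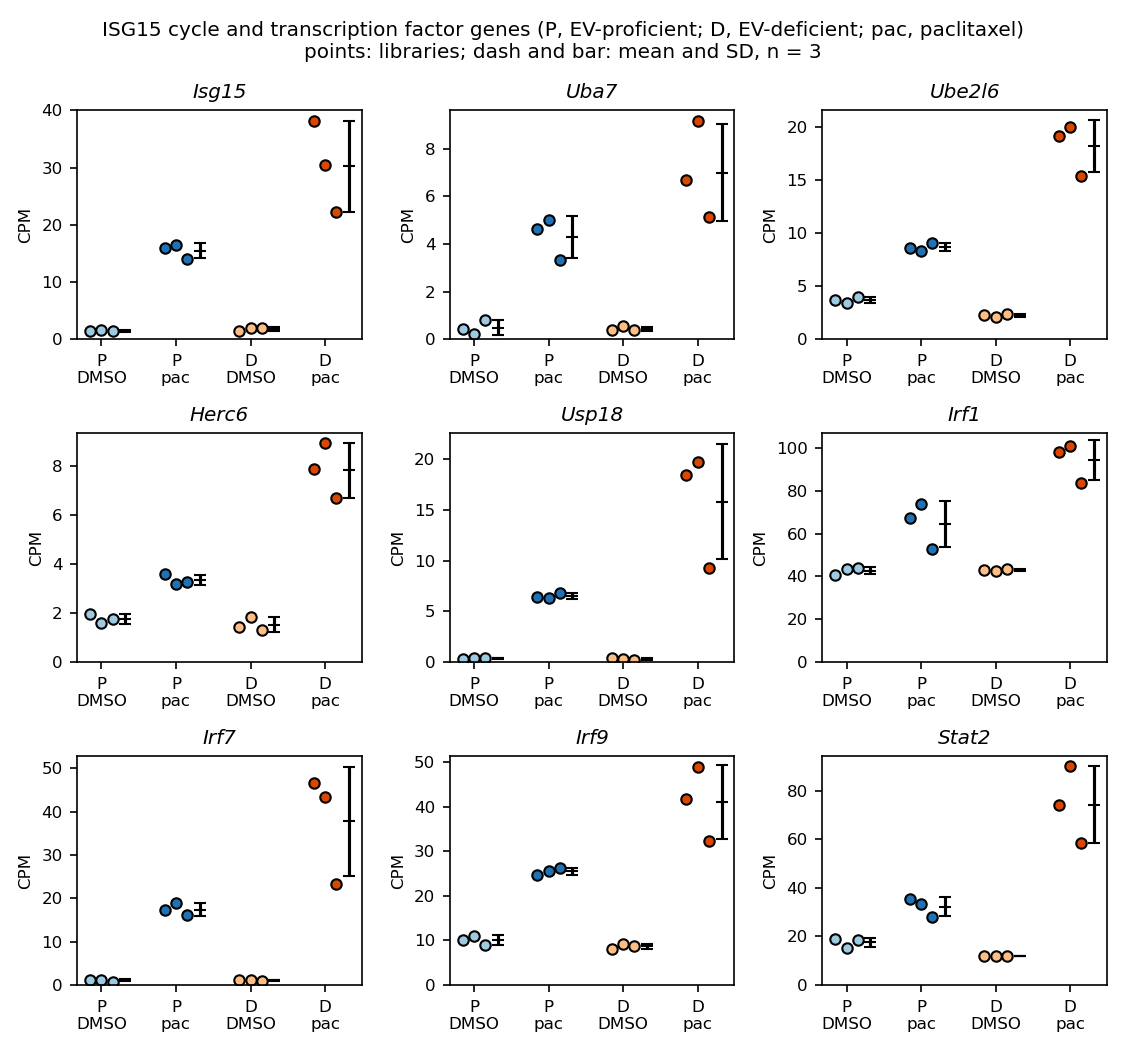
CPM of the 5 ISG15-cycle genes and the 4 transcription factor genes in each library (points; P, labelled EV-proficient; D, labelled EV-deficient; pac, paclitaxel), with the mean and SD of each group (dash and bar, n = 3). All 9 genes are highest in the EV-deficient paclitaxel libraries, in which replicate 3 is the lowest of its group.

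The 4 transcription factor genes rose in both labels. Irf7, which amplifies the interferon response and is itself interferon-induced, was at 1.24, 1.12 and 0.79 CPM in EV-proficient DMSO and 17.2, 18.9 and 16.1 CPM in EV-proficient paclitaxel libraries. Its EV-deficient levels were 1.07, 1.21 and 1.03 CPM with DMSO and 46.6, 43.3 and 23.3 CPM with paclitaxel. Irf7 rose 16.3-fold (4.03 ± 0.23 SE, adjusted p = 5.3e-12) and 34.1-fold (5.09 ± 0.22 SE, adjusted p = 5.6e-14). By contrast Irf1, an early interferon-induced factor gene that was already abundant without the drug, rose 1.52-fold (0.60 ± 0.09 SE) and 2.19-fold (1.13 ± 0.09 SE). Irf1 was at 40.7, 43.4 and 44.0 CPM in EV-proficient DMSO, 67.2, 73.6 and 52.7 CPM in EV-proficient paclitaxel, 43.1, 42.5 and 43.5 CPM in EV-deficient DMSO and 98.2, 101 and 83.4 CPM in EV-deficient paclitaxel libraries. Its DMSO groups overlapped and its drug groups were separate.

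Irf9 and Stat2, which encode subunits of ISGF3, rose by similar average amounts (log2 fold change 1.78 ± 0.09 and 1.76 ± 0.09 SE). Irf9 was at 10.2, 11.1 and 8.9 CPM in EV-proficient DMSO, 24.6, 25.6 and 26.3 CPM in EV-proficient paclitaxel, 8.14, 9.28 and 8.75 CPM in EV-deficient DMSO and 41.7, 49.0 and 32.4 CPM in EV-deficient paclitaxel libraries. It rose 2.52-fold in EV-proficient and 4.70-fold in EV-deficient cells. Stat2 was at 18.9, 15.2 and 18.5 CPM in EV-proficient DMSO, 35.5, 33.3 and 28.1 CPM in EV-proficient paclitaxel, 12, 12 and 11.8 CPM in EV-deficient DMSO and 74.0, 90.4 and 58.7 CPM in EV-deficient paclitaxel libraries. The groups of Stat2 were separate at both treatments, lower in EV-deficient DMSO and higher in EV-deficient paclitaxel, and the increases were 1.85-fold (0.89 ± 0.12 SE) and 6.23-fold (2.64 ± 0.13 SE).

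Upstream of these genes, interferon transcripts were near the detection limit. Of 21 interferon genes, 6 had no count in any library and 1, Ifnab, was tested; it rose in EV-deficient cells (2.18 ± 0.69 SE, adjusted p = 0.0091), on at most 25 counts. Ifnb1 had 3, 2 and 0 counts in EV-proficient DMSO and 5, 2 and 1 in EV-proficient paclitaxel libraries. In EV-deficient libraries it had 0, 1 and 0 counts with DMSO and 10, 6 and 7 with paclitaxel. Against the floor of 3 counts per library, Ifnb1 was at least 2.37-fold higher with the drug in EV-deficient cells, and no fold was given in EV-proficient cells. In EV-deficient cells Ifng was at least 2.44-fold higher and Ifne at least 1.05-fold lower. Summed over the 21 genes, EV-deficient libraries had 15, 22 and 10 counts with DMSO and 75, 79 and 51 with paclitaxel. EV-proficient libraries had 16, 15 and 14 with DMSO and 29, 51 and 8 with paclitaxel. In a bulk culture, few expressing cells and little RNA per cell cannot be told apart, which holds for every level given here.

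Of 11 genes for interferon receptors and proximal signalling, 8 rose and 1 fell in EV-proficient cells, and 11 rose in EV-deficient cells. The type I receptor genes Ifnar1 (log2 fold changes of 0.39 in EV-proficient and 0.75 in EV-deficient cells) and Ifnar2 (0.40 and 1.01) rose in both labels, as did the type II receptor genes Ifngr1 (0.47 and 1.27) and Ifngr2 (0.48 and 1.54). For the type III receptor, Ifnlr1 rose in both (0.91 and 1.37), and Il10rb rose in EV-deficient cells (1.27), with 0.21 in EV-proficient cells (adjusted p = 0.13). Jak2, a receptor-bound kinase, rose with log2 fold changes of 0.78 and 1.81.

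Of 6 other IRF genes, 2 rose and 1 fell in EV-proficient cells and 5 rose and 1 fell in EV-deficient cells. Over all genes, 31.1% rose and 27.1% fell in EV-proficient cells, and 32.4% rose and 30.5% fell in EV-deficient cells. The EV-proficient count of IRF genes that rose is near that share. The largest average effects were those of Irf4, Irf8 (1.39) and Irf2 (0.77). Irf4 was at the floor with DMSO, at least 2.67-fold higher with paclitaxel in EV-proficient and at least 4.03-fold higher in EV-deficient cells, at means of at most 0.244 CPM. Irf8 had a log2 fold change of 0.08 in EV-proficient (adjusted p = 0.80) and 2.71 in EV-deficient cells. Of 8 negative regulators of interferon signalling, 3 rose and 2 fell in EV-proficient cells, and 2 rose and 3 fell in EV-deficient cells. These counts lie near the shares over all genes. Ptpn6 (0.89) rose on average, and the phosphatase genes Ptpn11 (-0.68) and Ptpn1 (-0.50) fell.

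Of the 10 antiviral and RNA or nucleotide effector genes, 7 rose and 2 fell in EV-proficient cells, and 8 rose and 1 fell in EV-deficient cells. Rsad2, which encodes viperin, an enzyme that makes a chain-terminating nucleotide, had an average effect of 6.08 ± 0.24 (SE). Mx2, with an EV-proficient DMSO group at the floor, had a fitted 6.06 ± 0.45 (SE), and 5.76 to 7.78 with 1 library left out. Rsad2 was at 1.53, 0.981 and 0.966 CPM in EV-proficient DMSO, 63.6, 59.6 and 52.5 CPM in EV-proficient paclitaxel, 1.09, 1.44 and 1.40 CPM in EV-deficient DMSO and 134, 171 and 53.3 CPM in EV-deficient paclitaxel libraries. Replicate 3 of the last group fell within the EV-proficient paclitaxel range, so these groups overlapped. Rsad2 rose 50.1-fold (5.65 ± 0.35 SE) and 91.6-fold (6.52 ± 0.33 SE). Cmpk2, a nucleotide kinase gene next to Rsad2 on chromosome 12 (12752 bases away, on the opposite strand), rose 16.3-fold (4.03 ± 0.32 SE) and 88.0-fold (6.46 ± 0.33 SE).

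Mx1, a myxovirus resistance gene for a dynamin-like GTPase, and its relative Mx2, which the annotation lists as a polymorphic pseudogene, had at most 3 counts in any EV-proficient DMSO library. Against the floor of 3 counts per library, Mx1 was at least 11.2-fold and Mx2 at least 13.0-fold higher with paclitaxel in EV-proficient cells. In EV-deficient cells the fitted log2 fold changes were 6.27 ± 0.71 and 6.95 ± 0.58 (SE), from DMSO levels of at most 0.146 CPM. They depended on single libraries, with 8.43 for Mx1 and 7.87 for Mx2 without EV-deficient DMSO replicate 2, and 5.74 for Mx1 without replicate 3. These 2 genes are related, and counting could divide shared reads between them.

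Ifitm3 and Bst2 rose less than Rsad2, Cmpk2, Mx1 and Mx2, from higher levels, a difference between genes that was not tested. Ifitm3, which blocks virus entry, rose 3.83-fold (1.94 ± 0.13 SE) and 5.85-fold (2.55 ± 0.13 SE), and Bst2, which tethers virions to the cell surface, rose 1.61-fold (0.69 ± 0.10 SE) and 3.86-fold (1.95 ± 0.10 SE). Eif2ak2, the RNA-activated kinase PKR, rose 2.18-fold in EV-deficient cells (1.12 ± 0.07 SE). Its EV-proficient increase of 1.16-fold (0.21 ± 0.07 SE, adjusted p = 0.018) was not called in 6 of the 12 fits with 1 library left out, in which the log2 fold change was as low as 0.13 (without EV-proficient paclitaxel replicate 1).

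Isg20, an exonuclease gene and the lowest of the 10 by average effect, fell. It was at 38.0, 47.6 and 41.4 CPM in EV-proficient DMSO, 28.9, 34.2 and 30.2 CPM in EV-proficient paclitaxel, 41.2, 36.8 and 38.5 CPM in EV-deficient DMSO and 31.8, 33.0 and 30.1 CPM in EV-deficient paclitaxel libraries. Drug libraries lay below DMSO libraries in both labels, with log2 fold changes of -0.44 ± 0.09 (adjusted p = 0.00018) and -0.30 ± 0.09 SE (adjusted p = 0.005). Upper-quartile scaling, under which the median of all genes in EV-deficient cells was 0.258 in place of 0.075, ended the second call (-0.11). Samhd1, which hydrolyses deoxynucleotides and whose libraries are given after its values were seen, was at 136, 135 and 118 CPM in EV-proficient DMSO and 88.9, 85.0 and 79.5 CPM in EV-proficient paclitaxel libraries. In EV-deficient libraries Samhd1 was at 119, 113 and 109 CPM with DMSO and 133, 121 and 123 CPM with paclitaxel. Samhd1 fell in EV-proficient cells (-0.61 ± 0.07 SE, adjusted p = 1.1e-07), while its EV-deficient value was 0.14 ± 0.07 (adjusted p = 0.072), which passed in 5 of the 8 other settings (0.33 with upper-quartile scaling) and in 1 of the 12 fits with 1 library left out.

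Adar encodes an RNA-editing deaminase. Its means were 55.5 and 56.3 CPM in EV-proficient libraries with DMSO and paclitaxel, and its log2 fold change of 0.02 ± 0.07 SE did not pass (adjusted p = 0.80). In EV-deficient cells it rose by 0.18 ± 0.07 SE (adjusted p = 0.028), a call that was missing in 9 of 12 leave-one-out fits (0.13 without EV-deficient paclitaxel replicate 1). Of its exon bases, 16.8% are shared with Chrnb2 on the opposite strand.

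The 5 PARP and deltex genes, whose products attach ADP-ribose to proteins or work with the enzymes that do, all rose in both labels. Parp14 had the highest average effect (3.08 ± 0.08 SE). It was at 10.7, 8.33 and 8.84 CPM in EV-proficient DMSO, 30.5, 30.0 and 27.4 CPM in EV-proficient paclitaxel, 4.41, 4.11 and 4.52 CPM in EV-deficient DMSO and 105, 112 and 80.5 CPM in EV-deficient paclitaxel libraries. The 4 groups did not overlap, and Parp14 rose 3.15-fold (1.66 ± 0.11 SE) and 22.8-fold (4.51 ± 0.12 SE). Parp10 had the lowest average effect (1.26 ± 0.08 SE) and increases of 2.26-fold and 2.52-fold in the 2 labels. Its levels were 6.99, 8.28 and 6.85 CPM in EV-proficient DMSO, 16.5, 18.6 and 14.8 CPM in EV-proficient paclitaxel, 7.98, 7.78 and 6.86 CPM in EV-deficient DMSO and 20.3, 20.1 and 16.8 CPM in EV-deficient paclitaxel libraries. Both Parp10 drug groups overlapped each other.

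Parp9 and its partner Dtx3l, a ubiquitin ligase gene with which it forms a complex, stood side by side on chromosome 16 near Parp14. Parp9 rose 2.14-fold and 5.71-fold, and Dtx3l 2.07-fold and 6.05-fold. The annotation has them on opposite strands with 458 shared exon bases, and whether strand was used in counting is not given in the sources used here. Parp12 rose 2.33-fold and 4.97-fold. Among 15 other PARP and deltex genes, 9 rose and 3 fell in EV-proficient and 9 rose and 2 fell in EV-deficient cells, and their medians were 0.33 and 0.29. The largest average effects in that list were those of Dtx4 (0.85), Parp11 (0.82) and Parp1 (-0.78), the DNA damage sensor that makes poly(ADP-ribose).

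All 3 TRIM ubiquitin ligase genes rose in both labels. Trim30a was at 0.219, 0.311 and 0.205 CPM in EV-proficient DMSO, 1.80, 2.62 and 2.02 CPM in EV-proficient paclitaxel, 0.0357, 0.0626 and 0.132 CPM in EV-deficient DMSO and 15.7, 16.6 and 7.60 CPM in EV-deficient paclitaxel libraries. No 2 groups overlapped, and the fitted increases were 8.66-fold (3.11 ± 0.36 SE) and 174-fold (7.44 ± 0.38 SE), the latter from DMSO counts of 2, 3 and 6. Trim30a belongs to a tandem family, and reads could be shared with relatives such as Trim30d, which rose with log2 fold changes of 2.98 ± 0.50 and 6.10 ± 0.49 SE. Trim25, which modifies the RNA sensor RIG-I was at 119, 116 and 114 CPM in EV-proficient DMSO and 193, 186 and 181 CPM in EV-proficient paclitaxel libraries. Its EV-deficient levels were 122, 123 and 123 CPM with DMSO and 255, 304 and 200 CPM with paclitaxel. Trim25 rose 1.60-fold (0.68 ± 0.09 SE) and 2.06-fold (1.05 ± 0.09 SE), and Trim21, the intracellular antibody receptor gene, 2.60-fold and 5.62-fold.

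The remaining 8 genes all rose in both labels. Ifi44 went furthest, with 0.146, 0.0718 and 0.176 CPM in EV-proficient DMSO, 9.11, 6.78 and 6.35 CPM in EV-proficient paclitaxel, 0, 0.0626 and 0 CPM in EV-deficient DMSO and 28.6, 30.3 and 12.2 CPM in EV-deficient paclitaxel libraries. Its EV-proficient increase was 57.0-fold (5.83 ± 0.43 SE). With 0, 3 and 0 counts in EV-deficient DMSO libraries, Ifi44 was at least 391-fold higher with the drug against the floor of 3 counts per library. Ifi35, which partners NMI, had the smallest average effect of the 8 (0.86 ± 0.08 SE), with 13.5, 16.3 and 14.8 CPM in EV-proficient DMSO, 19.4, 20.7 and 16.2 CPM in EV-proficient paclitaxel, 11.1, 11.6 and 10.1 CPM in EV-deficient DMSO and 27.8, 32.4 and 25.0 CPM in EV-deficient paclitaxel libraries. The EV-proficient groups of Ifi35 overlapped, and that call (0.34 ± 0.11 SE, adjusted p = 0.013) was lost without EV-proficient DMSO replicate 1 and without EV-proficient paclitaxel replicate 1 or 2, where the log2 fold change was as low as 0.21. An antisense transcript, Gm11626, shares 16.8% of its exon bases.

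Xaf1, an antagonist of the apoptosis inhibitor XIAP, was at 1.80, 1.32 and 1.64 CPM in EV-proficient DMSO, 13.7, 11.6 and 11.9 CPM in EV-proficient paclitaxel, 0.839, 0.751 and 1.14 CPM in EV-deficient DMSO and 40.3, 46.9 and 23.5 CPM in EV-deficient paclitaxel libraries. It rose 7.81-fold (2.97 ± 0.22 SE) and 40.6-fold (5.34 ± 0.23 SE). Sp100, a nuclear body gene, was at 0.341, 0.335 and 0.556 CPM in EV-proficient DMSO, 2.91, 2.37 and 1.70 CPM in EV-proficient paclitaxel, 0.0714, 0.209 and 0.197 CPM in EV-deficient DMSO and 15.7, 16.5 and 7.89 CPM in EV-deficient paclitaxel libraries. Both genes had 4 separate groups in the same order, EV-deficient DMSO lowest and EV-deficient paclitaxel highest. Sp100 rose 5.84-fold (2.55 ± 0.34 SE) and 84.7-fold (6.40 ± 0.36 SE).

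Rtp4 (33.5-fold and 87.8-fold), Lgals3bp (12.6-fold and 33.3-fold), Ifi204, a DNA-binding HIN-200 family gene (4.45-fold and 11.9-fold), and Nmi (1.86-fold and 2.56-fold) completed the group. Rtp4 shares 13.9% of its exon bases with a same-strand transcript (Gm45338). Among 17 tested family relatives of the 35 genes, 12 rose and 2 fell in EV-proficient and 13 rose and 1 fell in EV-deficient cells. Those with the largest average effect were the Ifi204 relatives Ifi207 (5.91) and Ifi203 (5.36), and Trim30d (4.54). Ifi204 and these relatives lie in families whose members could share reads.

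**Figure D4:**
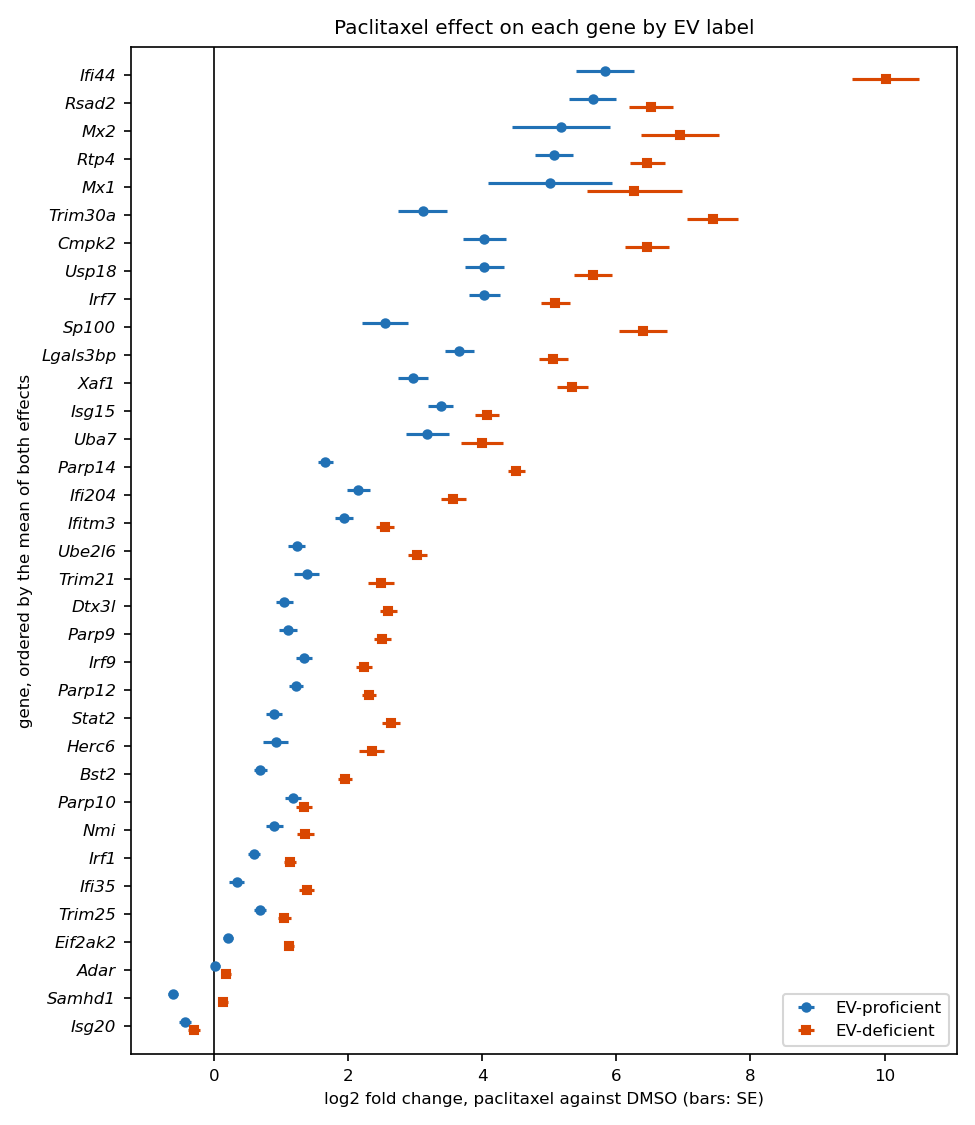
Log2 fold change of each gene, paclitaxel against DMSO (x axis, bars SE), in cells labelled EV-proficient (circles) and EV-deficient (squares), ordered by the mean of both. All genes except Isg20, Samhd1 and Adar lie above 0 past the threshold in both labels; values of Mx1, Mx2 and Ifi44 against DMSO groups at the floor are fitted values and no bounds.

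Levels were also divided by annotated length, as mean CPM per kilobase of exon merged over all transcripts of a gene. Which transcripts were expressed is not known, so ranks between genes are approximate. On this scale Bst2 was highest with DMSO, at 41.0 in EV-proficient and 28.3 in EV-deficient libraries. Isg20, Trim25, Ifitm3 and Samhd1 followed in both DMSO groups. With paclitaxel Ifitm3 (71.5) exceeded Bst2 (65.8) in EV-proficient libraries, Bst2 (109) exceeded Ifitm3 (97.1) in EV-deficient libraries, and Trim25 and Isg15 came next in both. Isg15 went from 1.96 to 20.5 CPM per kilobase in EV-proficient and from 2.39 to 40.1 in EV-deficient libraries. The other genes of the ISG15 cycle stayed below it with the drug, at 4.34 and 9.12 for Ube2l6, 2.33 and 5.66 for Usp18, 0.644 and 1.04 for Uba7 and 0.361 and 0.844 for Herc6 in EV-proficient and EV-deficient libraries.

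The difference between the EV labels was then compared within each treatment. With DMSO, 11 of the 35 genes were lower in the libraries labelled EV-deficient and 0 were higher (23.0% of all genes were called, 10.6% lower and 12.4% higher), and the median log2 difference was -0.21 against 0.04 over all genes. It was -0.34 without EV-deficient DMSO replicate 2 and -0.17 without EV-deficient DMSO replicate 1. Of the 31 genes that passed the filter on DMSO libraries, 10 were lower. The fitted difference was above 0 for 9 of the 35 genes, none of them past the threshold. The 11 were Ube2l6, Stat2, Bst2, Parp9, Parp12, Parp14, Dtx3l, Trim30a, Ifi35, Xaf1 and Sp100. Parp14 differed most firmly (-1.10 ± 0.13 SE, adjusted p = 1.1e-06), then Ube2l6 (-0.73 ± 0.14 SE, adjusted p = 0.00059), Bst2 (-0.53 ± 0.10 SE, adjusted p = 6e-04) and Stat2 (-0.55 ± 0.13 SE, adjusted p = 0.0029). These 4 were called in every alternative run. The count was smaller in fits without a single DMSO library: 6 without EV-proficient replicate 1, 7 without replicate 2 or 3, and 5 without EV-deficient replicate 1. It was 16 without EV-deficient paclitaxel replicate 3, and limma-voom called 5.

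Isg15 (0.28), Irf7 (0.05), Irf1 (0.01), Irf9 (-0.21), Usp18 (-0.33) and Herc6 (-0.21) did not pass the test with DMSO, and their DMSO groups overlapped. Ifi44, with at most 3 counts in each EV-deficient DMSO library, did not pass either (adjusted p = 0.14). The CPM ranges of the labels were separate and lower in EV-deficient DMSO libraries for 16 genes (18.5% of all genes) and higher for 1 (24.8%), Trim25.

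With paclitaxel 32 of the 35 genes were higher in the libraries labelled EV-deficient and 0 were lower (37.8% of all genes were called, 16.0% higher and 21.8% lower). The median log2 difference was 1.02 against 0.00 over all genes, and 28 of the 31 genes that passed on DMSO libraries were higher. Isg20 (0.02), Adar (0.13) and Parp10 (0.19) did not pass. The largest differences were those of Trim30a (2.62 ± 0.25 SE), Sp100 (2.49 ± 0.26 SE) and Mx2 (2.37 ± 0.39 SE). Of these, Trim30a and Mx2 passed the filter only through their paclitaxel libraries. Parp14 (1.75 ± 0.10 SE) had the lowest p (adjusted p = 5.5e-11). Isg15 was 1.95-fold higher (0.96 ± 0.15 SE, adjusted p = 2.8e-05), Irf7 2.16-fold (1.11 ± 0.17 SE) and Usp18 2.44-fold (1.29 ± 0.20 SE). Uba7 was 1.60-fold higher (0.68 ± 0.25 SE, adjusted p = 0.04), a call that was lost in 6 of the 12 fits with 1 library left out (0.45 without EV-deficient paclitaxel replicate 2). The ranges of the labels were separate for 30 genes (19.9% of all genes were separate in this direction). Leaving out EV-deficient paclitaxel replicate 3, the library with the lower levels, gave 32 genes again and a median of 1.17. Without EV-deficient paclitaxel replicate 1 it was 29 genes and 0.89.

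**Figure D5:**
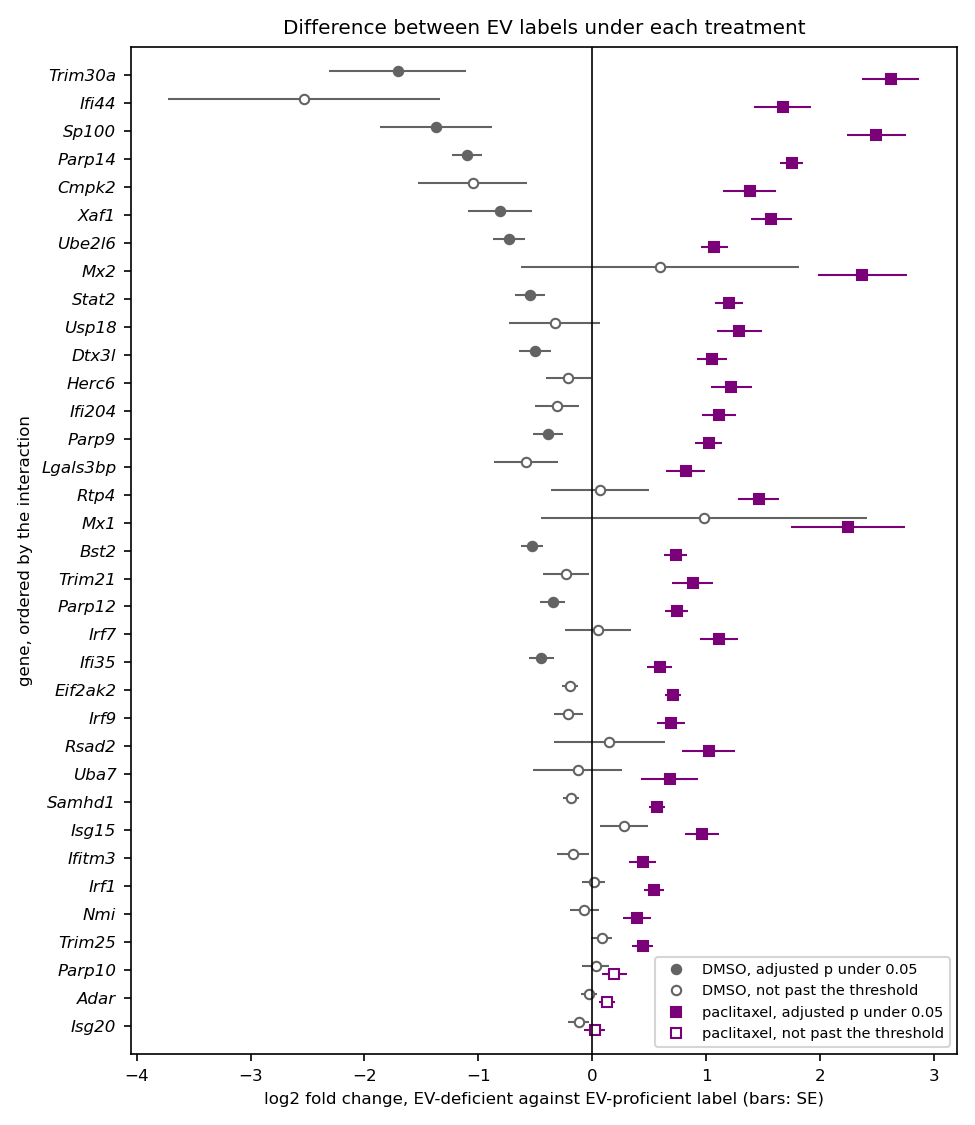
Log2 fold change between libraries labelled EV-deficient and EV-proficient (x axis, bars SE) with DMSO (circles) and with paclitaxel (squares), filled where the adjusted p is under 0.05, ordered by the interaction. Filled circles lie left of 0 for 11 genes and filled squares right of 0 for 32; values of Mx1, Mx2 and Ifi44 with DMSO rest on very few counts.

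The interaction, the difference between the paclitaxel effects of the 2 labels, was positive and past the threshold for 28 of the 35 genes and negative for 0 (background 16.9% positive, 23.8% negative). Its median was 1.26 against -0.04 over all genes, and 1.42 without EV-deficient paclitaxel replicate 3. Of the 31 genes that passed the filter on DMSO libraries, 26 were positive. The 11 genes that were lower with DMSO were all higher with paclitaxel in the libraries labelled EV-deficient. Of the 1920 genes lower with DMSO among all tested, 60.8% were higher with paclitaxel, so this reversal was common outside the 35 genes. With the labels as given, the interaction among these 11 was 4.33 ± 0.65 for Trim30a, which passed the filter only through its paclitaxel libraries, 3.86 ± 0.55 for Sp100, 2.85 ± 0.16 for Parp14, 2.38 ± 0.33 for Xaf1, 1.81 ± 0.19 for Ube2l6 and 1.75 ± 0.18 for Stat2 (SE). For an exchange with DMSO the values follow, and for one with paclitaxel each would take the opposite sign. With the EV labels exchanged with DMSO, 12 of the 35 genes passed with a positive value and 0 with a negative one. None of the 12 was Mx1, Mx2, Trim30a or Ifi44. Over all genes 9.6% passed, 3.41% positive and 6.2% negative, and the median of the 35 was 0.55. The values for the 6 genes were then 0.91 ± 0.74 for Trim30a, 1.12 ± 0.59 for Sp100, 0.65 ± 0.16 for Parp14, 0.77 ± 0.33 for Xaf1, 0.34 ± 0.19 for Ube2l6 and 0.64 ± 0.17 for Stat2 (SE), of which Parp14 and Stat2 passed (adjusted p = 0.015 and 0.024). These 6 were lower with DMSO, so the exchange had to shrink their values. It raised those of genes whose fitted EV-label difference with DMSO was above 0, though none of these differences passed the threshold. Such values went to 1.24 from 0.68 for Isg15 (adjusted p = 0.0045), 1.16 from 1.06 for Irf7, 1.54 from 1.39 for Rtp4 and 0.52 from 0.37 for Trim25, which passed. That of Mx1 went to 3.22 from 1.26 and did not pass. For Isg15 the interaction as labelled was 0.68 ± 0.26 SE (adjusted p = 0.041), a call missing in 7 of 12 leave-one-out fits (0.51 without EV-deficient paclitaxel replicate 1). Uba7 (0.81, adjusted p = 0.18), Rsad2 (0.87, adjusted p = 0.23), Parp10 (0.16), Adar (0.16), Isg20 (0.15), Mx1 (1.26) and Mx2 (1.78) did not pass. Rsad2 was called without EV-deficient paclitaxel replicate 3 (1.26) and without the filter on low counts (0.81). The calls for Trim25 (0.37) and Nmi (0.46) were missing in 7 and 8 of the 12 leave-one-out fits (0.26 without EV-deficient paclitaxel replicate 2 and 0.32 without replicate 1), and limma-voom, which made neither call, called 18 genes.

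Read by level, 24 of the 35 genes had the group order EV-deficient DMSO, EV-proficient DMSO, EV-proficient paclitaxel, EV-deficient paclitaxel from lowest to highest mean (12.2% of all genes tested), and 9 had the same order with the DMSO groups exchanged (8.76%).

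Cell-type markers were checked against the label. Of 8 epithelial markers, 6 were at 1 CPM or more in every group, while Krt5 and Trp63 were near 0. Their summed levels were lower with the drug, at 3500 to 4370 CPM against 5480 to 6110 CPM with DMSO. The 10 leukocyte markers summed to between 7.68 and 8.81 CPM in EV-proficient DMSO, 21.1 and 21.7 in EV-deficient DMSO, 40.5 and 45.1 in EV-proficient paclitaxel and 27.1 and 47.3 CPM in EV-deficient paclitaxel libraries. Most of this was Cd68 and Csf1r. Ptprc was at mean levels of 0.396 to 1.01 CPM, Siglech had no count in any library, and Cd3e and Adgre1 had at most 4 counts. Fibroblast and endothelial markers summed to 3.46 to 4.65 CPM with DMSO and 7.07 to 9.80 CPM with paclitaxel. The leukocyte sums, too, were higher with the drug in both labels, and the part of these markers in the results was not tested. The share of mitochondrial counts was also higher with paclitaxel, at 1.07% to 1.45% in the EV-deficient drug libraries, where replicate 3 had the lowest value.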

How the data were processed

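RNA sequencing libraries were made from poly(A) RNA with a stranded kit, per the labels' protocols. Reads were aligned with STAR 2.5.0a to GRCm38, per the submitters' processing notes, and the authors deposited raw counts per gene; the counting program, its annotation and its use of strand are not given in the sources used here. Of 55423 rows, 55421 were Ensembl genes, and 2 added rows (at most 0.00142% of a library's counts) stayed out of library sizes and tests. The 3995 genes that carry no symbol took up to 0.102% of a library.

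Counts were scaled by TMM (factors 0.89 to 1.15), filtered with filterByExpr (minimum count 10), which left 18108 genes, and fitted over all 12 libraries with edgeR 4.0.16's quasi-likelihood test in R 4.3.3, with 1 coefficient per group. P-values were adjusted by Benjamini-Hochberg over all genes tested, with a threshold of 0.05, separately for 6 comparisons. SE is that of the log2 fold change. Folds against a group with at most 3 counts in each library were set against that floor (0.0492 to 0.121 CPM per library) and cover counting error only. DESeq2 1.42.0, limma 3.58.1 (voom), other scalings and filters, a replicate block, fits restricted to the compared groups, and omission of each library in turn were the alternatives.

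The members and the gene lists were chosen with earlier results of these data known. Every member was to be described, with values per library for the ISG15 cycle, the transcription factors, the highest and lowest average effect of each other role group, and the members with opposite calls between the EV labels and the largest interaction; of each pathway list, named receptor and enzyme genes and the 3 called genes with the largest average effect. The fit was tested on simulated counts for paclitaxel in EV-proficient cells (17528 genes), where it recovered 62% of genes changed 1.5-fold and 96% of those changed 8-fold, with 6 false calls. Same-numbered libraries had correlations of deviations from -0.081 to 0.097, so the numbers do not pair them. Values of 1 signalling gene and 1 marker gene of these lists are not reported here.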

Additional observations from a re-analysis of the deposited data

Results flagged for a closer look

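The paclitaxel effects of the 2 EV labels differed by a test of the difference itself (edgeR's interaction term, adjusted p under 0.05) for 28 genes with the EV labels as given. If the labels were exchanged in 1 treatment, 12 would pass, positive for an exchange with DMSO and negative for one with paclitaxel. The values below would then not be differences between the drug effects of the lines. In the ISG15 cycle and transcription factors these log2 differences were 0.68 for Isg15, 1.81 for Ube2l6, 1.43 for Herc6, 1.62 for Usp18, 0.53 for Irf1, 1.06 for Irf7, 0.90 for Irf9 and 1.75 for Stat2. Among the antiviral genes they were 2.43 for Cmpk2, 1.26 for Bst2, 0.61 for Ifitm3, 0.76 for Samhd1 and 0.91 for Eif2ak2. Parp9 (1.42), Parp12 (1.09), Parp14 (2.85), Dtx3l (1.55), Trim21 (1.11), Trim25 (0.37) and Trim30a (4.33) followed. The calls for Isg15, Trim25 and Nmi were lost in 7, 7 and 8 of the 12 fits with a library omitted. That for Rtp4 was lost in 3 of them, without EV-proficient DMSO replicate 2 or 3 or EV-deficient DMSO replicate 1 (1.16 to 1.32), and those for Irf7 (0.91 without EV-proficient DMSO replicate 1) and Ifitm3 (0.47 without EV-proficient DMSO replicate 3) in 1 each. limma-voom made none of these 6 calls, nor those for Usp18, Cmpk2, Ifi44 and Lgals3bp. The remaining genes were Ifi35 (1.03), Nmi (0.46), Xaf1 (2.38), Rtp4 (1.39), Sp100 (3.86), Lgals3bp (1.40), Ifi204 (1.42) and Ifi44. Ifi44 had a fitted 4.19 against a group at the floor, and 3.57 to 7.27 with 1 library left out.

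The added dngfr row, which no comparison of the report uses, averaged 10.92 CPM in the libraries labelled EV-deficient with paclitaxel, against 2.15 CPM in those labelled EV-deficient with DMSO.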

How the results depend on the processing

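Of 4126 values of single genes under the other settings, 3936 kept their direction and side of the threshold, 101 no longer passed, 47 newly passed and 42 changed sign, of which 0 were called in the fit reported. Calls that held in every setting numbered 32 of 34 for paclitaxel in either EV label, 34 of 34 for the average effect, 4 of 11 for the EV label with DMSO, 28 of 32 with paclitaxel and 18 of 28 for the interaction. limma-voom called 5 genes for the EV label with DMSO and 18 for the interaction; the cause was not tested. With 1 library left out, the EV label with DMSO gave 5 to 16 genes and the interaction 24 to 30. Sign changes were in values near 0 or from few counts. For paclitaxel in EV-proficient cells Adar was 0 with median-of-ratios scaling and -0.10 to 0.04 with 1 library left out. For the EV label with DMSO, Irf1 was -0.01 with median-of-ratios scaling and DESeq2, -0.02 with upper-quartile scaling and only the groups compared, and -0.03 to 0.04 with 1 library left out; Adar was 0.02 without a low-count filter, and Uba7 0.02 with limma-voom. Leaving out 1 library there gave -0.47 to 0.42 for Uba7, -0.10 to 0.19 for Irf7, -1.19 to 4.43 for Mx1, -0.34 to 4.04 for Mx2, -0.01 to 0.13 for Parp10, -0.12 to 0 for Nmi and -0.13 to 0.29 for Rtp4. For the EV label with paclitaxel, Isg20 was 0 without the filter and -0.03 to 0.10 with 1 library left out. With the EV labels exchanged with DMSO, chosen after seeing the data and not counted above, 12 genes passed for the interaction, the median was 0.55 in place of 1.26, Ifi44 was -0.86 and Isg20 -0.10. Interactions without 1 library were -2.20 to 3.42 for Mx1 and -1.68 to 2.70 for Mx2. A replicate block was also fitted, though the labels do not say that the numbers pair libraries. It gave 34, 35 and 34 called genes for the paclitaxel effects (EV-proficient, EV-deficient, average). For the EV label it gave 12 with DMSO and 32 with paclitaxel, and for the interaction 28. Upper-quartile scaling placed 58.2% of the calls for the EV label with paclitaxel on the higher side, against 42.4%, with 53.9% against 41.4% for the interaction and 63.4% against 51.5% for paclitaxel in EV-deficient cells. Without a low-count filter that share was 64.1% against 53.9% for the EV label with DMSO. Depth limits Mx1, Mx2, Trim30a and Ifi44 with DMSO and all interferon genes.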
